A study of Oryza sativa Japonica Group and Oryza sativa Indica Group and Oryza sativa Indica Group x Oryza sativa Japonica Group with 9 samples.

Results

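Shoots of the F1 hybrid between the rice cultivars C92 and MH63 were compared with shoots of the parent MH63 to find which loci depart from that parent in the hybrid. Loci were kept where FPKM, a fragment number scaled for transcript length and library size, was at least 1 in at least 3 of the 6 libraries, which left 20725 of the 55783 loci in the files. The F1 group held 3 libraries of the hybrid, which the labels class as indica crossed with japonica. The MH63 group held 3 libraries of that indica cultivar, and 3 libraries of the other parent, the japonica cultivar C92, serve here as a side value only. The labels write the cross as C92×MH63 in the titles and as MH63 x C92 in the cultivar field, so the seed parent is unclear. Every library came from shoots of seedlings aged 14 days, raised in water at 28 °C under a cycle of 16 h light (100 µmol m-2 s-1) and 8 h dark. Polyadenylated RNA was reverse transcribed from random hexamers, and strand is not stated, so loci that overlap on opposite strands, or that share reads with a near-identical copy, are uncertain. The labels call the replicates biological but do not tell how plants were allotted to them. P-values here therefore reflect the variation between these libraries.

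A hybrid plant inherits a version of each gene from either parent, and both versions are read in the same nucleus. A gene that is active in a single parent can therefore be transcribed in the hybrid, and a gene whose parental versions differ in activity often lies between the parents. Crosses between the indica and japonica subspecies are known for strong vegetative vigour, and MH63 is a parent line that restores fertility in commercial hybrid rice.

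Each library was closest to the others of its group. Across tested loci, which are not independent replicates, Pearson correlations of log2(FPKM + 1) were 0.979 to 0.982 within F1, 0.975 to 0.987 within MH63 and 0.913 to 0.934 between F1 and MH63. FPKM summed to between 609633 and 619705 per library. Loci above 0 numbered 32611, 33131 and 33329 in F1 and 30440, 31343 and 31225 in MH63. Depth relative to MH63 library 1 was 1.07, 1.31 and 1.24 in F1 and 1.14 and 1.12 in MH63 libraries 2 and 3. By the group mean F1 was deeper, at 1.21 against 1.09. F1 library 1 was shallower than MH63 libraries 2 and 3 but had more loci above 0 than either. The part of depth in that count was not tested. Loci 2-fold or more apart between libraries of a group numbered 273 to 402 in F1. In MH63 they numbered 224 between libraries 1 and 2, against 534 and 522 between library 3 and those libraries.

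The tissue was checked with locus lists. Members below 1 FPKM in all 6 libraries numbered 8 of 9 seed storage markers, 6 of 9 flower organ markers, 4 of 6 meristem markers and 5 of 13 root markers. The root list was not absent, since a pair of its members held between 381 and 968 FPKM in every library. Antenna loci and Rubisco and Calvin cycle loci had the highest sums of all lists in every library, as is usual in green shoots. In bulk shoots, fewer cells of a type and less RNA per cell cannot be told apart.

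In the hybrid, more loci were higher than lower against MH63. By limma on log2(FPKM + 1), with Benjamini-Hochberg adjustment over all tested loci and an adjusted p below 0.05, 3294 of 20725 loci (15.9%) were called, 1984 higher in F1 (9.57%) and 1310 lower (6.32%). At an unadjusted p below 0.05, 6364 loci passed (30.7%). A further requirement of a 2-fold change left 837 higher (4.04%) and 317 lower (1.53%), together 5.57%. Most changes were modest on the log2(FPKM + 1) scale, which understates changes of low loci. The median log2 fold change on it was 0.85 (1.81-fold) over the loci called higher and -0.70 (1.63-fold lower) over those called lower, against 0.01 over all tested loci. All F1 libraries lay above all MH63 libraries at 4408 loci (21.3%) and below them at 3273 loci (15.8%), together 37.1%.

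How far the excess of higher loci reached depended on the scaling. After quantile normalization, 1746 loci were higher and 1571 lower, with 689 and 448 of these at 2-fold or more. With median-ratio scaling, 1862 were higher and 1434 lower. The 2-fold counts moved little when single libraries were left out, while the full counts fell by more than 1.5 times in some cases. Without F1 library 2, 1284 loci were higher and 760 lower, and without MH63 library 1, 1286 were higher and 617 lower. Loci called lower numbered 834 without F1 library 1 and 719 without MH63 library 2. No source used here states the genome and annotation behind the FPKM values, so lower levels in MH63 and weaker alignment of MH63 reads cannot be told apart.

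The hybrid's excess grew with the size of the change. At 1.5-fold or more, 1425 loci were higher and 858 lower in F1, so that 62.4% of the called loci were higher. At 4-fold or more there were 322 higher and 22 lower (93.6% higher), and at 16-fold or more 59 higher and 2 lower. Large differences from MH63 were thus nearly all in the direction of higher FPKM in the hybrid. The comparison is with a single parent, whose gene versions the hybrid also carries, and the part of this in the asymmetry was not tested.

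**Figure D1:**
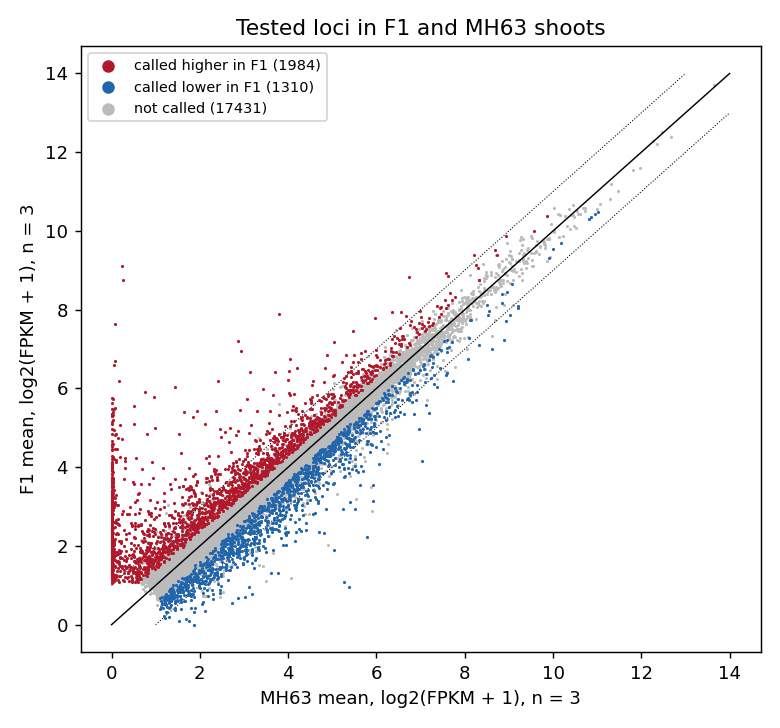
Mean level in F1 (vertical) against mean level in MH63 (horizontal) on the log2(FPKM + 1) scale for the 20725 tested loci, 3 libraries per group; dotted lines mark a 2-fold difference. The 1984 loci called higher in F1 include a column of points at 0 in MH63, which has no counterpart along the lower edge among the 1310 loci called lower.

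The excess lay at loci that MH63 barely expressed, as the plot of F1 against MH63 levels shows at its left edge. Of the 837 loci higher at 2-fold or more, 396 (47.3%) averaged under 0.1 FPKM in MH63, 166 averaged 0.1 to 1, 148 averaged 1 to 5, and 127 averaged 5 or more. Of the 317 loci lower at 2-fold or more, 3 averaged under 0.1 FPKM in F1, 40 averaged 0.1 to 1, 140 averaged 1 to 5, and 134 averaged 5 or more. Where both groups averaged at least 5 FPKM (13290 loci), 840 loci were higher and 722 lower in F1, with 127 and 134 of these past 2-fold. The excess of higher loci at 2-fold was therefore not seen among loci that both groups expressed at that level. With a pseudocount of 0.1, which weighs down low values less, 1038 loci were higher and 518 lower at 2-fold or more.

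**Figure D2:**
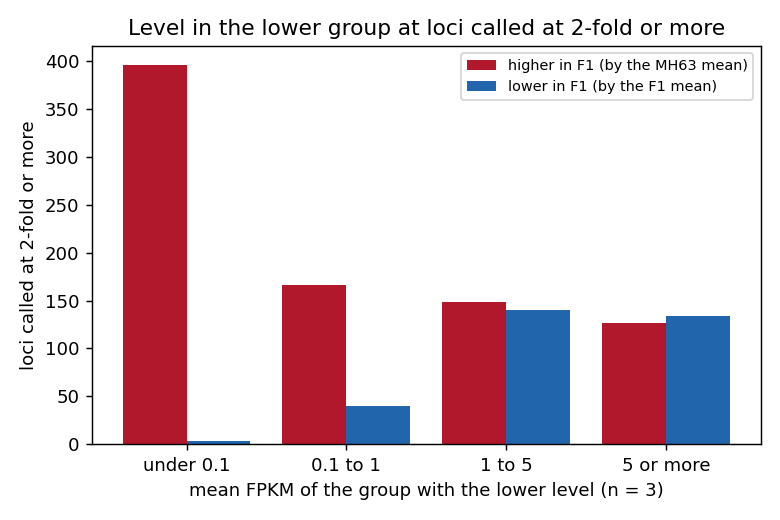
Number of loci called at 2-fold or more (vertical) by the mean FPKM of the group with the lower level, which is MH63 for loci higher in F1 (red) and F1 for loci lower in F1 (blue). Under 0.1 FPKM stand 396 loci against 3, and at 5 FPKM or more 127 against 134.

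The same pattern held by overall abundance. Among 4283 loci averaging under 3 FPKM over the 6 libraries, 10.6% were called at 2-fold or more, 399 higher and 57 lower in F1. The share was 6.30% at 3 to 10 FPKM (262 higher, 125 lower), 3.09% at 10 to 30 (112 and 83) and 2.99% at 30 to 100 (52 and 39). Among 222 loci at 300 FPKM or more, 3 were higher and 5 lower at 2-fold or more. Of the 100 most abundant tested loci, 3 were called higher and 7 lower, with 0 at 2-fold or more and log2 fold changes between -0.61 and 0.97. The most abundant transcripts of the shoot thus kept within 2-fold of MH63 in the hybrid.

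Taken as shares of each library's FPKM sum, both sets of called loci were small. Loci called higher held 8.71%, 9.12% and 8.62% of the sum in F1 libraries 1, 2 and 3, against 4.71%, 4.69% and 4.52% in the MH63 libraries. Loci called lower held 4.92%, 4.66% and 4.89% in F1 and 8.06%, 7.75% and 7.95% in MH63. These shares describe the loci the test picked and test nothing further.

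The 4 loci with the largest changes among loci that both groups expressed are given by locus ID, because no table used here pairs the IDs with gene names or functions. They were taken where the libraries of the groups did not overlap and the lower group averaged at least 5 FPKM. LOC_Os01g31050, on chromosome 1, had 133, 171 and 136 FPKM in F1 and 6.45, 6.92 and 5.37 FPKM in MH63. Every F1 library was far above every MH63 library. The means were 147 ± 21.2 FPKM in F1 and 6.25 ± 0.795 FPKM in MH63 (SD, n = 3 each), a log2 fold change of 4.35 (limma adjusted p = 2.65e-06, SE 0.13). C92 averaged 178 ± 0.460 FPKM, above F1.

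LOC_Os05g22716, on chromosome 5, had 198, 234 and 272 FPKM in F1 and 15.8, 13.6 and 9.0 FPKM in MH63. The groups were again far apart, with a log2 fold change of 4.11 (limma adjusted p = 2.74e-05, SE 0.21). C92 averaged 217 ± 44.1 FPKM, close to the 234 ± 36.8 FPKM of F1 (SD, n = 3 each). F1 library 3 lay between the other hybrid libraries at the first locus and above them at this one.

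In the other direction, LOC_Os07g33898, on chromosome 7, had 14.5, 17.94 and 18.2 FPKM in F1 and 128, 155 and 106 FPKM in MH63. All F1 libraries were low, at a log2 fold change of -2.86 (limma adjusted p = 3.91e-05, SE 0.16), and C92 averaged 4.80 ± 0.424 FPKM (SD, n = 3). LOC_Os08g32750, on chromosome 8, had 6.69, 7.14 and 9.46 FPKM in F1 and 69.0, 57.0 and 52.4 FPKM in MH63, a log2 fold change of -2.79 (limma adjusted p = 3.97e-05, SE 0.15). It was almost absent from C92, at 0.0133 ± 0.0231 FPKM, so the hybrid lay between the parents. Direction and call of these 4 loci held under every alternative run, with adjusted p-values of up to 0.0242.

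Loci expressed in the hybrid and not in MH63 far outnumbered the reverse. The hybrid also carries the MH63 version of each gene, and the part of this in the contrast was not tested. At least 1 FPKM in all F1 libraries and at most 0.1 in all MH63 libraries was found at 367 of the 20725 tested loci. Of these, 233 were listed at 0 in all 3 MH63 libraries. The opposite was found at 1 locus, which was listed at 0 in all F1 libraries and had 4.60, 1.12 and 2.28 FPKM in MH63. C92 also expressed this locus, at 1.22, 1.67 and 2.34 FPKM. These limits force a difference, and all 367 loci passed the filter on low values through F1 alone. The 367 loci therefore support nothing about the test, and without them 1617 loci were called higher, 470 of them at 2-fold or more.

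Most of the 367 loci were lowly expressed, with a median of 3.51 FPKM in F1, and 69 of them averaged 10 FPKM or more, up to 198 FPKM. Their summed level was 3135, 2991 and 2606 FPKM in F1, against 2.90, 2.84 and 3.04 FPKM in MH63. C92 summed to 4780, 5043 and 5039 FPKM at these loci, and 360 of the 367 had at least 1 FPKM in all C92 libraries. F1 library 3 was the lowest of the hybrid libraries in this sum. Chromosome 8 held 59 of these loci among 1375 tested, chromosome 4 held 48 among 1834 and chromosome 6 held 44 among 1696. The smaller chromosomes 10 and 12 held 33 among 1089 and 32 among 1155. Chromosomes 5 and 7 held 10 each, among 1688 and 1550 tested loci. At the 360 loci also expressed in C92, the median ratio of F1 to the C92 mean was 0.620, 0.586 and 0.518 in F1 libraries 1, 2 and 3. Without F1 library 3, 410 loci met the limits, a count that leaving out a library can only raise. With limits of 2 and 0.2 FPKM, 273 did.

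Loci called in this comparison had C92 levels on the F1 side of MH63, as medians. Loci called higher had a median level of 8.92 FPKM in F1, 3.24 FPKM in MH63 and 10.1 FPKM in C92. Loci called lower had 6.40 FPKM in F1, 12.2 FPKM in MH63 and 4.95 FPKM in C92. At 2-fold or more the medians were 5.69 FPKM in F1, 0.147 FPKM in MH63 and 8.01 FPKM in C92 for the higher loci, and 4.1 FPKM in F1, 12.2 FPKM in MH63 and 0.710 FPKM in C92 for the lower loci. The hybrid's median lay between those of the parents in each of these sets. C92 took no part in the fit and is given as a level only.

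Called loci were unevenly spread over the chromosomes, read from the number in the locus ID. The share of tested loci called ranged from 12.9% on chromosomes 5 and 7 to 20.7% on chromosomes 8 and 11. At 2-fold or more it was 9.45% on chromosome 8, where 94 of 1375 tested loci were higher and 36 lower in F1. Chromosome 11 followed with 8.87%, chromosome 10 with 7.81%, chromosome 6 with 7.37% and chromosome 4 with 7.14%. The share was lowest on chromosome 3, at 3.55%. Loci higher in F1 outnumbered loci lower at 2-fold or more on each of the 12 chromosomes.

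**Figure D3:**
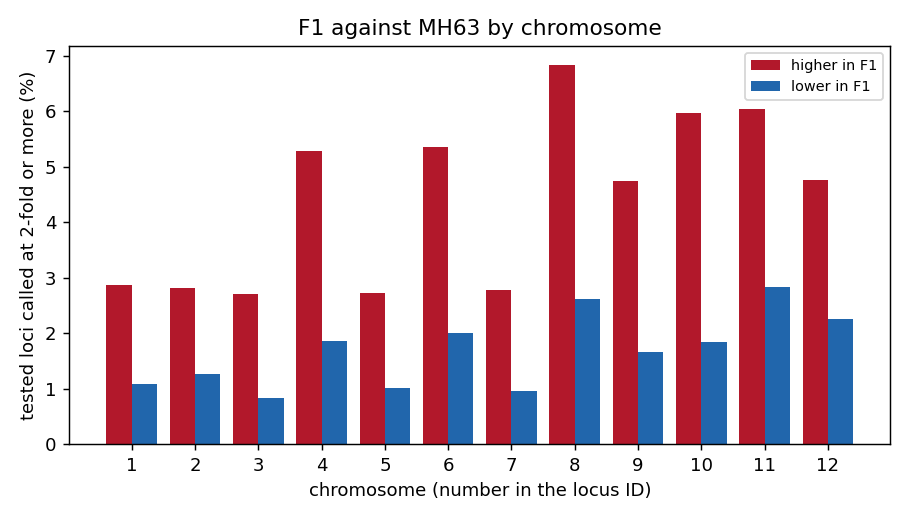
Share of tested loci called at 2-fold or more (vertical, percent) on each chromosome (horizontal), higher in F1 in red and lower in F1 in blue. The red bars reach 6.84% on chromosome 8 and 6.04% on chromosome 11, and stand at 2.71% to 2.88% on chromosomes 1, 2, 3, 5 and 7.

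Within chromosomes, called loci gathered in blocks. Over 2019 windows of 50 neighbouring tested loci, taken in steps of 10, the median share called at 2-fold or more was 4%, and 397 windows held 0. The windows named here were picked for their high values. The window from LOC_Os04g11850 to LOC_Os04g15680 reached 44%, with 19 loci higher and 3 lower in F1. Its summed level nevertheless differed little, at 437, 429 and 425 FPKM in F1 and 451, 432 and 437 FPKM in MH63.

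Other windows differed in their make-up. From LOC_Os08g12820 to LOC_Os08g14440 the share was 36% (15 higher, 3 lower in F1), and from LOC_Os12g25090 to LOC_Os12g29290 it was 34% (11 higher, 6 lower). From LOC_Os10g11260 to LOC_Os10g17100 it was 32% (11 higher, 5 lower), and there the summed level was 1370, 1353 and 1298 FPKM in F1 against 791, 740 and 781 FPKM in MH63. From LOC_Os09g15850 to LOC_Os09g19700 the share was 30%, with 7 loci higher and 8 lower. Blocks therefore held loci of both directions, and their sums need not follow the count.

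Next-door loci were more often called alike than loci at large. After a locus called higher at 2-fold or more, the next tested locus was called the same way in 150 of 835 cases (18%), against 4.03% over all tested loci. After a locus called lower at 2-fold or more it was so in 30 of 317 cases (9.46%), against 1.53%. The 837 higher loci fell into 687 runs of neighbours, 115 of them of 2 or more loci and 24 of 3 or more. The longest run, of 5 loci on chromosome 2 from LOC_Os02g37700 to LOC_Os02g37800, summed to 92.9, 123 and 89.2 FPKM in F1 and to 21.1, 19.1 and 25.9 FPKM in MH63. Neighbouring loci can be near-identical copies that share reads, and the part of this in the runs was not tested.

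F1 library 3 was set beside libraries 1 and 2. It shared their direction at every called locus: all 1984 higher loci were above the MH63 mean and all 1310 lower loci below it in each F1 library, a direction that the call itself favours. Against the MH63 mean, 889 loci stood 2-fold or more above and 395 below in F1 library 1, 1066 above and 572 below in library 2, and 876 above and 539 below in library 3. Loci above thus made up 69.2%, 65.1% and 61.9% of these. Library 3 held the smallest share above, although it was above more often than below.

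Departures from MH63 were smallest in library 3 at the loci with large changes. At loci higher at 2-fold or more, the median log2 difference from the MH63 mean was 1.72, 1.81 and 1.67 in F1 libraries 1, 2 and 3. At loci lower at 2-fold or more it was -1.27, -1.38 and -1.16, and these loci held a median of 34.2%, 30.4% and 37.7% of the MH63 mean in FPKM. Over all tested loci the median difference was 0.03, 0.05 and -0.01. Library 3 was the lowest hybrid library at 487 of the 837 higher loci (58.2%) and at 43.0% of all tested loci. It was the highest at 166 of the 317 lower loci (52.4%) and at 26.6% of all tested loci. At these loci library 3 therefore stood nearer to MH63 than libraries 1 and 2 more often than over all tested loci.

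Across all tested loci, F1 library 3 correlated less with C92 than the other hybrid libraries did, but no better with MH63 than F1 library 1. Correlations with the C92 libraries across tested loci were 0.951 to 0.964 in F1 library 1, 0.952 to 0.958 in library 2 and 0.927 to 0.934 in library 3. Correlations with the MH63 libraries were 0.932 to 0.934 in F1 library 1, 0.913 to 0.929 in library 2 and 0.925 to 0.934 in library 3. At the 240 loci with at least 1 FPKM in all MH63 libraries and at most 0.1 in all C92 libraries, the median ratio of F1 to the MH63 mean was 0.390, 0.334 and 0.486 in F1 libraries 1, 2 and 3. The 360 loci above were chosen with all F1 libraries at 1 FPKM or more, and the 240 loci without a limit on F1. Their ratios are therefore not comparable between the sets. Among the hybrid libraries, library 3 kept more of the MH63 level at the 240 loci, and less of the C92 level at the 360 loci. Relative depth was 1.07, 1.31 and 1.24 in F1 libraries 1, 2 and 3, and its part in this was not tested.

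The calls rested on library 3 less than on F1 libraries 1 and 2, by the number lost when each was left out. Without it, 1501 loci were higher and 993 lower in F1, or 825 and 331 past 2-fold. With library 3 as the lone F1 library, taken to vary as the MH63 libraries do, 641 loci were higher and 151 lower, or 580 and 104 past 2-fold. The lone library kept 55.6% of the loci called at 2-fold or more, and 0 called loci turned direction.

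Over all tested loci, 273 lay 2-fold or more apart between F1 libraries 1 and 3 and 402 between libraries 2 and 3. Between libraries 1 and 2 there were 281. A narrower rule took well-expressed loci at which libraries 1 and 2 were alike, and no like count for library 1 or 2 is given. Among 7841 loci averaging at least 10 FPKM in F1, with F1 libraries 1 and 2 within 0.25 of each other on the log2 scale, 7 were at least 2-fold higher in library 3 than the mean of the other two and 16 at least 2-fold lower, and 63 and 115 at 1.5-fold. LOC_Os02g33070 had 34.3, 29.5 and 89.4 FPKM in F1 libraries 1, 2 and 3, and 96.2, 201 and 127 FPKM in MH63. LOC_Os02g52150 had 5.82, 6.34 and 18.5 FPKM in F1 and 5.78, 9.69 and 2.26 FPKM in MH63. Library 3 was the highest hybrid library at both.

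At the other end, LOC_Os05g02300 had 22.4, 22.2 and 3.33 FPKM in F1 libraries 1, 2 and 3, and 39.6, 63.2 and 30.5 FPKM in MH63. LOC_Os02g45940 had 24.1, 25.4 and 4.33 FPKM in F1 and 29.6, 46.1 and 27.0 FPKM in MH63. At both, library 3 was far below the other hybrid libraries and every MH63 library. None of these 4 loci was called between F1 and MH63. They were picked for the difference of library 3, which was therefore not tested.

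Known groups of rice genes were followed through 21 lists, each a set of locus IDs set down from textbook knowledge of rice. Of 269 members, 206 were tested, and 16 were called higher and 27 lower in F1. Members are counted and not named, because no table used here ties the IDs to genes. The shares called over all tested loci, 9.57% higher and 6.32% lower, are the background for each count. Lists and members were chosen with earlier results of these data known, so a share above the background is a description and not a test.

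**Figure D4:**
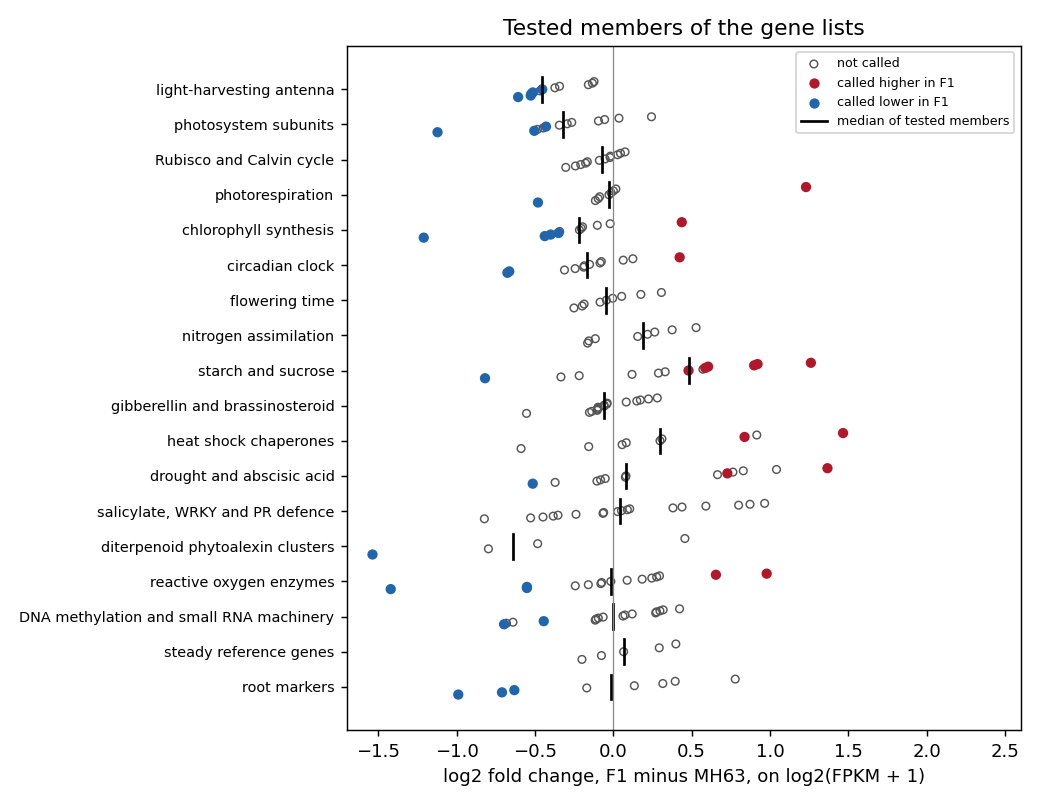
log2 fold change of F1 over MH63 on the log2(FPKM + 1) scale (horizontal) for each tested member of the lists with at least 4 tested members (vertical); filled points were called, red higher and blue lower in F1, and bars mark list medians. The bar stands at -0.45 for the light-harvesting antenna and at 0.48 for starch and sucrose.

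The light-harvesting antenna consists of proteins that bind chlorophyll and pass light energy to the photosystems. Of 11 tested loci on its list, 0 were called higher and 5 lower in F1 (45.5%), while 6 did not pass, and at 8 of the 11 all F1 libraries lay below all MH63 libraries, as they did at 15.8% of all tested loci. All 11 had a negative log2 fold change, from -0.61 to -0.12 with a median of -0.45, which was -0.27 after quantile normalization and -0.48 with median-ratio scaling. Summed, they held 15673, 14544 and 14541 FPKM in F1 and 19036, 20490 and 17906 FPKM in MH63, so the groups did not overlap and F1 stood at 0.779 of MH63. An exact permutation test on the sums gave p = 0.1, the smallest value that 3 against 3 libraries allow, and 0.191 after Benjamini-Hochberg adjustment over the lists. The photosystem, chlorophyll, heat shock and circadian clock sums gave the same values. So did the sums for defence, diterpenoid clusters, reactive oxygen enzymes, steady references, meristem markers and flower organ markers. Sums without overlap occurred in both directions among the lists, also for the steady references. C92 summed to 18372 ± 3747 FPKM (SD, n = 3). The calls were near the threshold: 5 became 1 without F1 library 1, 0 without F1 library 2, F1 library 3, MH63 library 1 or MH63 library 2, 0 with no filter on low values, and 2 after quantile normalization. The gene table placed a gene of the intended symbol at 2 of the 12 IDs kept and held no such symbol for the others.

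Photosystem subunits, which form the reaction centres and the water-splitting side of the thylakoid complexes, were the next list. Of 12 tested members 0 were called higher and 3 lower, and 1 of the 13 IDs kept was placed by the gene table, with a median log2 fold change of -0.32. The member with the largest change had 20.4, 12.3 and 15.2 FPKM in F1 and 30.9, 27.0 and 52.4 FPKM in MH63 (log2 fold change -1.12, SE 0.27, limma adjusted p = 0.0349). The list summed to 12073, 11639 and 12643 FPKM in F1 and 14917, 15790 and 13929 FPKM in MH63, again without overlap. The count of lower members was 0 without F1 library 2 or MH63 library 1, and 1 without F1 library 1, F1 library 3 or MH63 library 2.

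Of 11 loci listed for chlorophyll synthesis, 1 was called higher and 4 lower. They summed to 1074, 1075 and 1125 FPKM in F1 and 1410, 1414 and 1245 FPKM in MH63, with F1 lower in every library. The largest change was at a member with 64.3, 55.1 and 29.9 FPKM in F1 and 119, 112 and 102 FPKM in MH63 (log2 fold change -1.21, SE 0.26, limma adjusted p = 0.0240). The count of lower members was 0 without F1 library 2 or MH63 library 1, and 1 without F1 library 1 or MH63 library 2. The member called higher lost its call when any F1 library or MH63 library 2 was left out.

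For carbon fixation, the groups overlapped. Of 12 Rubisco and Calvin cycle loci, which fix carbon dioxide into sugars and of which the gene table placed 3, 0 were called by limma in either direction and 0 had an unadjusted p below 0.05. Their sums overlapped, at 32892, 32962 and 36740 FPKM in F1 and 35195, 37338 and 34073 FPKM in MH63. Of 9 photorespiration loci, which recycle the product of oxygen uptake by Rubisco, 1 was higher and 1 lower. The higher one had 434, 435 and 506 FPKM in F1 and 181, 193 and 211 FPKM in MH63, a log2 fold change of 1.23 (limma adjusted p = 0.000393, SE 0.11) that stayed called whichever single library was left out. The lower one, at 785, 773 and 926 FPKM in F1 and 1118, 1145 and 1194 FPKM in MH63, stayed called only without F1 library 3 among the single libraries left out.

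**Figure D5:**
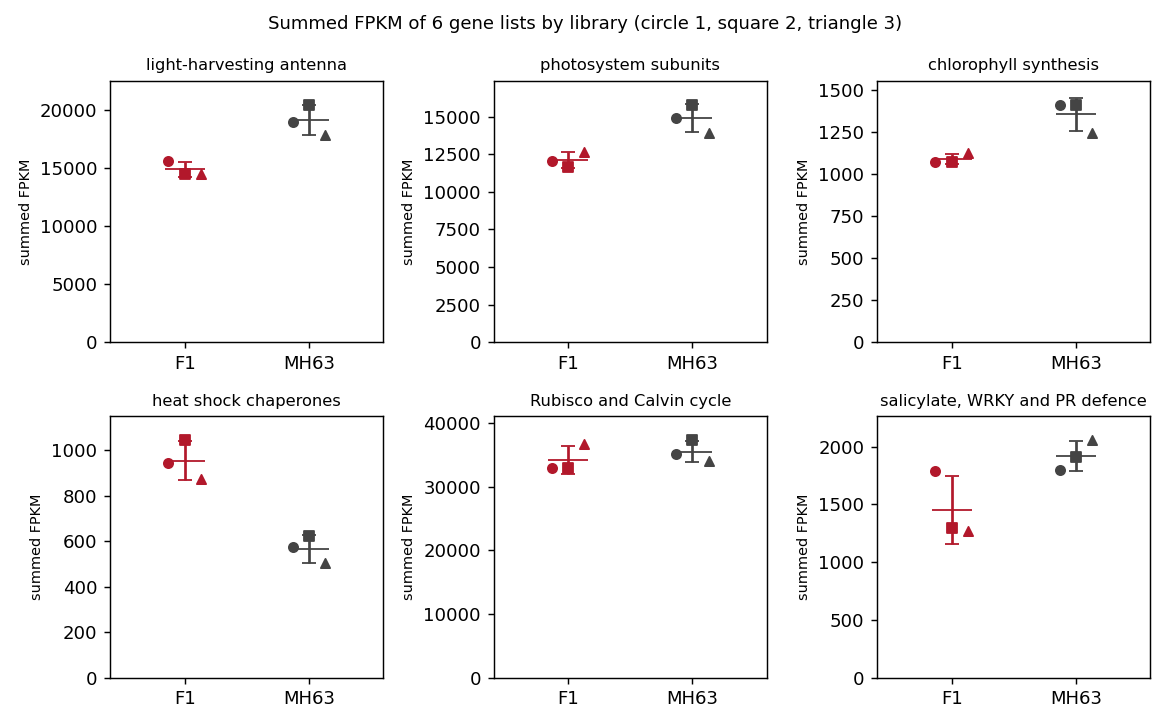
Summed FPKM (vertical, from 0) of 6 gene lists in each F1 and MH63 library, with the mean and SD of 3 libraries as bars and libraries 1, 2 and 3 as circle, square and triangle. The F1 libraries lie below MH63 for antenna, photosystem and chlorophyll loci and above MH63 for heat shock loci, overlap for Rubisco and Calvin cycle loci, and for the defence loci F1 library 1 at 1790 FPKM stands beside MH63 library 1 at 1793 FPKM.

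Loci listed for starch and sucrose metabolism, which store and move the sugars made in leaves, were called higher more often than lower. Of 13 tested members 6 were called higher (46.2%) and 1 lower, with a median log2 fold change of 0.48, which was 0.34 after quantile normalization and 0.47 with median-ratio scaling. One of the higher members had 194, 229 and 200 FPKM in F1 and 116, 109 and 102 FPKM in MH63 (log2 fold change 0.92, SE 0.10, limma adjusted p = 0.00112). Another had 12.6, 17.83 and 15.5 FPKM in F1 and 6.57, 5.16 and 5.61 FPKM in MH63 (log2 fold change 1.26, SE 0.14, limma adjusted p = 0.00153). The groups were well apart at both.

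The member called lower was the most abundant of the list in MH63, at 179, 168 and 119 FPKM in F1 and 266, 238 and 314 FPKM in MH63. The list's sums overlapped, at 912, 1040 and 870 FPKM in F1 and 895, 826 and 879 FPKM in MH63. When single libraries were left out, 3 to 5 members were called higher, with 3 without F1 library 3 or MH63 library 2. The lower call was lost without F1 library 2, MH63 library 1 or MH63 library 3.

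Heat shock chaperones, which fold and refold proteins, summed to 945, 1043 and 871 FPKM in F1 and 572, 623 and 503 FPKM in MH63, 1.68 times as much in F1. Of 9 tested members 2 were called higher and 0 lower. The sum was carried by 1 member with 738, 798 and 671 FPKM in F1 and 410, 438 and 384 FPKM in MH63 (log2 fold change 0.84, SE 0.11, limma adjusted p = 0.00287). The other had 43.2, 50.1 and 34.9 FPKM in F1 and 20.0, 20.0 and 7.71 FPKM in MH63. Leaving out any F1 library left 1 member called higher, and 3 were called without MH63 library 2 or MH63 library 3. Loci listed as steady references, of which 0 of 5 were called and 1 had an unadjusted p below 0.05, also summed to more in F1, at 1181, 1510 and 1226 FPKM against 1126, 1178 and 921 FPKM in MH63.

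Of 12 circadian clock loci, which time daily rhythms, 1 was higher and 2 were lower. The higher one was by far the most abundant, at 1082, 933 and 1041 FPKM in F1 and 753, 768 and 752 FPKM in MH63 (log2 fold change 0.42, SE 0.10, limma adjusted p = 0.0376). It set the list's sum, and its call was lost whichever single library was left out, and with median-ratio scaling. The lower calls were both lost without F1 library 2 or MH63 library 1, and 1 was lost without F1 library 1, MH63 library 2 or MH63 library 3. The hour of sampling is not given in the labels.

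Antioxidant enzymes, listed as reactive oxygen enzymes, moved both ways. Of 15 tested members 2 were higher and 3 lower. The largest change was a member with 40.2, 41.0 and 38.2 FPKM in F1 and 77.7, 98.7 and 165 FPKM in MH63 (log2 fold change -1.42, SE 0.25, limma adjusted p = 0.0107). A higher one had 665, 713 and 624 FPKM in F1 and 465, 465 and 349 FPKM in MH63 (log2 fold change 0.66, SE 0.14, limma adjusted p = 0.0227). The higher calls were both lost without F1 library 1 or F1 library 2, and 1 was lost without F1 library 3, MH63 library 1 or MH63 library 2. The lower calls numbered 2 when any single library other than F1 library 2 was left out.

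The list for DNA methylation and small RNA machinery holds loci meant as enzymes that set DNA methylation, enzymes that remove it, and parts of the small RNA pathways. Of 16 tested, 0 were higher and 2 lower. One had 12.2, 13.5 and 11.4 FPKM in F1 and 19.1, 19.7 and 23.3 FPKM in MH63 (log2 fold change -0.70, SE 0.11, limma adjusted p = 0.00626). The other had 3.27, 4.09 and 3.53 FPKM in F1 and 5.49, 5.41 and 4.96 FPKM in MH63. Leaving out any single library other than F1 library 2 left 1 of these calls. The rest of the list had log2 fold changes that did not pass the test.

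Lists of growth and flowering regulators gave few or no calls. Among 9 flowering time loci 0 were called by limma and 1 had an unadjusted p below 0.05, and 1 was called higher without MH63 library 3 and with all 9 libraries in the fit. Among 16 gibberellin and brassinosteroid loci, which control stem and leaf elongation, 0 were called and 0 had an unadjusted p below 0.05. Among 8 nitrogen assimilation loci 0 were called and 2 had an unadjusted p below 0.05, with a median log2 fold change of 0.19. A missed threshold does not show that the levels are equal.

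In the stress and defence lists, MH63 library 2 stood apart from the other MH63 libraries at some members. Of 18 tested loci for salicylate, WRKY and PR defence, 0 were called and 5 had an unadjusted p below 0.05, and 1 was called higher without F1 library 2, MH63 library 2 or MH63 library 3. One member had 4.99, 8.23 and 5.87 FPKM in F1 and 0.600, 174 and 2.02 FPKM in MH63, so MH63 library 2 stood alone. The full list summed to 1790, 1292 and 1266 FPKM in F1 and 1793, 1911 and 2055 FPKM in MH63. Leaving out the most abundant pair of members, the list summed to 345, 259 and 281 FPKM in F1 and 199, 597 and 354 FPKM in MH63.

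Diterpenoid phytoalexin clusters, which make antifungal compounds, had 4 of 16 members tested, 0 higher and 1 lower. The lower one had 11.1, 10.5 and 18.8 FPKM in F1 and 42.8, 49.8 and 29.4 FPKM in MH63 (log2 fold change -1.54, SE 0.26, limma adjusted p = 0.00942), and stayed called whichever single library was left out. The list without its top pair summed to 5.46, 10.01 and 7.69 FPKM in F1 and 3.01, 58.4 and 4.03 FPKM in MH63, where library 2 again stood apart. Without MH63 library 2, 854 loci were higher and 297 lower at 2-fold or more over all tested loci.

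Of 13 drought and abscisic acid loci 2 were higher and 1 lower. A higher one had 11.5, 20.8 and 16.5 FPKM in F1 and 7.31, 3.83 and 5.91 FPKM in MH63 (log2 fold change 1.37, SE 0.26, limma adjusted p = 0.0147). Both higher calls were lost without F1 library 2 or F1 library 3, 1 was lost without MH63 library 1, and 3 members were called higher without F1 library 1. The lower call was lost without F1 library 2, MH63 library 1 or MH63 library 2.

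Markers of other organs also differed in places. Of 8 tested root markers 0 were higher and 3 lower, the clearest at 6.63, 7.03 and 7.63 FPKM in F1 and 15.5, 14.9 and 14.9 FPKM in MH63 (log2 fold change -0.99, SE 0.09, limma adjusted p = 0.000426). Without F1 library 3 or MH63 library 1, 1 was lower. The count of higher members was 1 without F1 library 3, with median-ratio scaling, with a pseudocount of 0.1 and with all 9 libraries in the fit. A pair of members carried the list's sum of 1613, 1648 and 1364 FPKM in F1 and 1255, 1036 and 1419 FPKM in MH63. Without that pair the sums were 33.0, 38.9 and 31.3 FPKM in F1 and 50.03, 43.2 and 43.8 FPKM in MH63.

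Of 3 tested flower organ markers 1 was higher and 1 lower. The lower one had 14.3, 14.98 and 12.3 FPKM in F1 and 33.0, 27.8 and 33.8 FPKM in MH63 and stayed called whichever single library was left out, while the higher one lost its call in each of these cases. The median log2 fold change of this list was 0.23, and -0.12 after quantile normalization. Of the 1 tested meristem marker and the 1 tested seed storage marker, 0 were called by limma and 0 had an unadjusted p below 0.05. The part of organ make-up in the other results was not tested.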

How the data were processed

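The authors deposited 1 FPKM value per locus and library, with 2 decimals. Reads were aligned with HISAT2 2.0.5, per the submitters' processing notes; no source used here names the build, the annotation or the program behind FPKM. No read numbers are given, so no interval for counting error can be printed. Relative depth was read from the step of low values. FPKM already divides by length and library size and is not a count, so no count model was used.

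F1 and MH63 were compared with limma 3.58.1 (R 4.3.3), fitted to log2(FPKM + 1), which understates changes of low loci, with an intensity trend and no covariate, two-sided. The script was tested on simulated data. The rest used Python 3.11.15. Alternatives were another pseudocount (0.1), no filter or a mean of at least 5 FPKM, other scalings, no trend, all 9 libraries in 1 fit, a replicate block, single libraries left out, and F1 library 3 alone.

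No ID was found in the gene table (RefSeq, assembly ASM3414082v1): 0 of 55783. Printed loci have the largest fold changes, at most 2 each way, among called loci with no overlap between groups and a lower group averaging at least 5 FPKM; for F1 library 3, the largest differences from the other F1 libraries. List IDs were checked by place: of 286 IDs, 163 lie within 0.03 of the chromosome length of a gene of the intended symbol, 106 have no such symbol, 16 lie elsewhere and 1 is not in the files, and those of the last 2 kinds were dropped. Members and lists were chosen with earlier results of these data known.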

Additional observations from a re-analysis of the deposited data

How the results depend on the processing

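Over all alternatives run, 0 called loci turned direction. Loci lower at 2-fold or more numbered 317, against 518 with a pseudocount of 0.1. At a mean of at least 5 FPKM, 1024 loci were higher and 794 lower in F1, and 304 higher at 2-fold or more, among fewer loci tested. With F1 library 3 as the lone F1 library, 641 were higher and 151 lower, and 104 lower at 2-fold or more. With single libraries left out, 1284 to 1691 were higher and 617 to 1025 lower, and at 2-fold or more 769 to 854 and 258 to 331. Loci at 1 FPKM or more in F1 and at most 0.1 in MH63 numbered 367. With a limit of 0 there were 233, and with single libraries left out 374 to 410. The reverse count was 1, against 0 with limits of 0.2 and 2 and 1 to 4 with single libraries left out. Leaving out a library can only raise these counts and a limit of 0 can only lower them, so these directions were fixed in advance. Replicate numbers did not pair the samples: deviations of same-numbered libraries correlated at -0.30, 0.15 and -0.02, and 0 of 3 F1 libraries correlated best with their own number. With the replicate block, 1468 loci were higher and 922 lower, and 835 and 325 at 2-fold or more. Of the list counts under alternatives, 504 stayed within 1.5 times and 126 moved further; the cause was not tested. Without read numbers, the depth limit of low loci cannot be given.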
